A study of Mus musculus with 4 samples.

Results

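The genes of amino acid and one-carbon catabolism were followed through acetaminophen (APAP)-induced liver injury in mice. They code for the enzymes by which the liver breaks down amino acids and moves their carbon units between methionine, folate and cysteine. They were selected by gene symbol as a list of 49 genes in 13 pathway groups, with earlier results of these data known. Of these, 47 were found by symbol among the 27027 entries of the deposited table, and all 47 reached a mean of 10 normalized reads over the 4 libraries, as did 12113 of all entries. The remaining 2, Hpd and Afmid, are joined in the table with overlapping or neighbouring genes into 1 entry each. They are described apart from the 47.

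Male C57BL/6J mice (strain C57BL/6 in the sample labels), 9 to 12 weeks of age, were fasted overnight for 10 h and then received either 0.9% NaCl or APAP at 300 mg/kg by intraperitoneal injection. Food was then available again. Livers were taken at 24 h or 48 h. RNA of 6 mice was pooled for control 24 h, of 6 for control 48 h, of 7 for APAP 24 h and of 7 for APAP 48 h. All 4 groups share strain, sex and fasting and differ in agent and time. Each pool gave 1 library. The pools were analysed by massive analysis of cDNA ends (MACE), which reads mRNA from the 3′ end. The libraries held 4859661 (control 24 h), 5191990 (control 48 h), 5698778 (APAP 24 h) and 4938164 (APAP 48 h) reads counted on genes. Since a group is 1 pool, no test was run and no p-value is given. The numbers in parentheses behind a fold are its 95% exact (Clopper-Pearson) interval, which covers counting error only and not the differences between mice or pools. What pools can differ by without APAP is seen only between the control pools. Normalized reads are the deposited counts divided by the size factor of the library. A gene was counted as lower or higher when APAP and control pool of 1 time point were at least 2-fold apart. MACE counts depend on the 3′ end of each gene, so that levels are compared between libraries and not between genes.

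Most amino acids are degraded mainly in hepatocytes, by removal of the amino group through transamination or deamination and by oxidation of the carbon skeleton to intermediates of the citric acid cycle, glucose or ketone bodies. In the methionine cycle, methionine is converted to S-adenosylmethionine, the methyl donor of most methylation reactions, and the resulting homocysteine is either remethylated to methionine or passed through transsulfuration to cysteine, a building block of glutathione. Glutathione captures the reactive metabolite of APAP, and hepatocytes around the central vein, where that metabolite is formed, are the first to become necrotic.

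Among the 47 genes, lower expression prevailed at 24 h. Below the control pool of the same time were 40 of 47 (85.1%) at 24 h and 30 of 47 (63.8%) at 48 h, compared to 49.6% and 51.3% of all 12113 genes. The median log2 fold was -0.47 at 24 h and -0.28 at 48 h, whereas the median over all genes was 0.01 and -0.02. A decrease of at least 2-fold was found for 7 of the 47 genes at 24 h, namely Hgd, Kynu, Haao, Prodh, Got1, Bhmt and Cth, which is 14.9% against 5.68% of all genes. At 48 h it was found for 4 genes, Haao, Prodh, Gnmt and Bhmt, which is 8.51% against 5.61% of all genes. Haao, Prodh and Bhmt were lower by this measure at both time points (3 of 47), as were 2.4% of all genes. These counts depend on scaling and control. With library totals, 5 genes were lower at 24 h, 1 at 48 h and 1 at both. With the control pool of the other time, the counts were 12, 1 and 1. An increase of at least 2-fold was seen for Sdsl at 24 h (background 5.85%), for Sdsl and Csad at 48 h (5.76%) and for Sdsl at both (2.15%). Genes just inside and just outside the 2-fold limit were Got1 (log2 fold -1.07) and Shmt1 (-0.99) at 24 h, and Gnmt (-1.01) and Mccc1 (-0.92) at 48 h.

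Those shares depend on which genes serve as background. The members are abundant in liver, and abundant genes as a whole were lower after APAP. A mean of 500 normalized reads was reached by 1117 genes, among them 32 members. The median log2 fold of these was -0.21 at 24 h and -0.25 at 48 h over all genes, and -0.47 and -0.21 over the members. Within that abundant set, 15.6% of the members and 10.2% of all genes were at least 2-fold lower at 24 h, and 9.38% and 13.4% at 48 h. A mean of 100 was reached by 4398 genes, 46 of them members, with medians of -0.07 at 24 h and -0.10 at 48 h over all genes and of -0.47 and -0.25 over the members. In that set 8.70% of the members and 6.12% of all genes were at least 2-fold lower at 48 h. Below control at 24 h and 48 h were 57.0% and 60.4% of these 4398 genes and 68.8% and 70.7% of the 1117. For the 47 members the shares were 85.1% and 63.8%, so that at 48 h theirs was under that of the 1117 genes. By median, the members thus lay below either set at 24 h, whereas the order at 48 h depended on the abundance required. Scaling by library totals in place of size factors raised the log2 fold of every gene by 0.19 at 24 h and 0.27 at 48 h. The median of the members was then -0.28 and -0.01, and that of all genes 0.19 and 0.25.

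**Figure D1:**
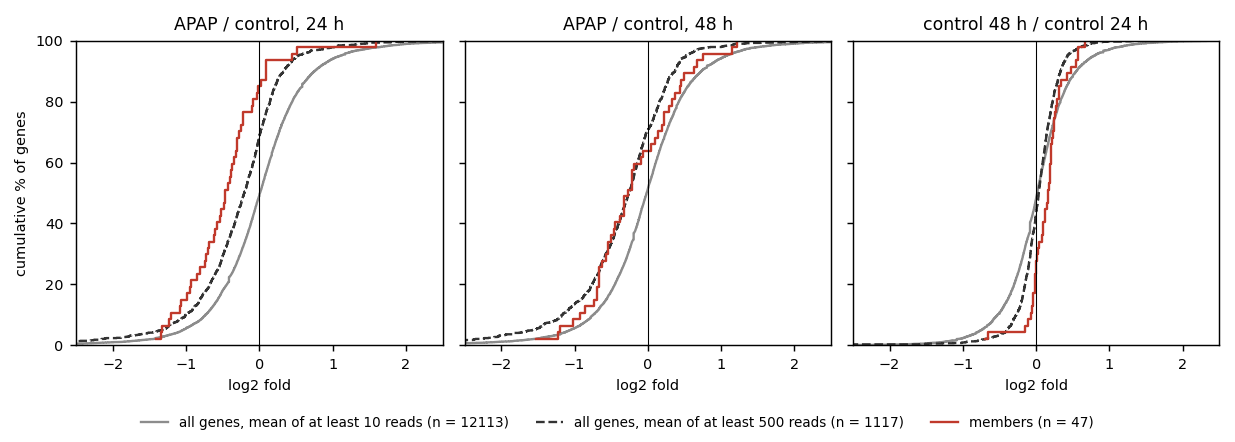
Cumulative share of genes (y axis, percent) by log2 fold (x axis) for APAP over control at 24 h (left), at 48 h (middle) and control 48 h over control 24 h (right), for all 12113 genes, the 1117 genes whose mean reached 500 normalized reads and the 47 members. At 24 h the curve of the members lies left of both backgrounds over most of its range, at 48 h it runs close to that of the abundant genes, and between the control pools it lies mostly to the right of 0.

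Between the control pools, 34 of the 47 genes were higher at 48 h and 13 (27.7%) lower, whereas 48.3% of all genes and 43.2% of the 1117 abundant ones were lower. The median log2 fold of the members was 0.17 (all genes 0.02). In none was the difference as large as 2-fold, compared to 5.2% of all genes in either direction and to 0.25% lower and 0.364% higher among the 4398 genes whose mean reached 100, a mean that 46 of the members reached. In 3 members it exceeded 1.5-fold. Those were Gnmt, higher at 48 h, and Amt and Csad, lower at 48 h. Each APAP pool was therefore also set against the control pool of the other time. Measured against both control pools, the APAP pool at 24 h remained at least 2-fold lower in the same 7 genes, the APAP pool at 48 h only in Haao. Sdsl was at least 2-fold higher than both control pools at either time.

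**Figure D2:**
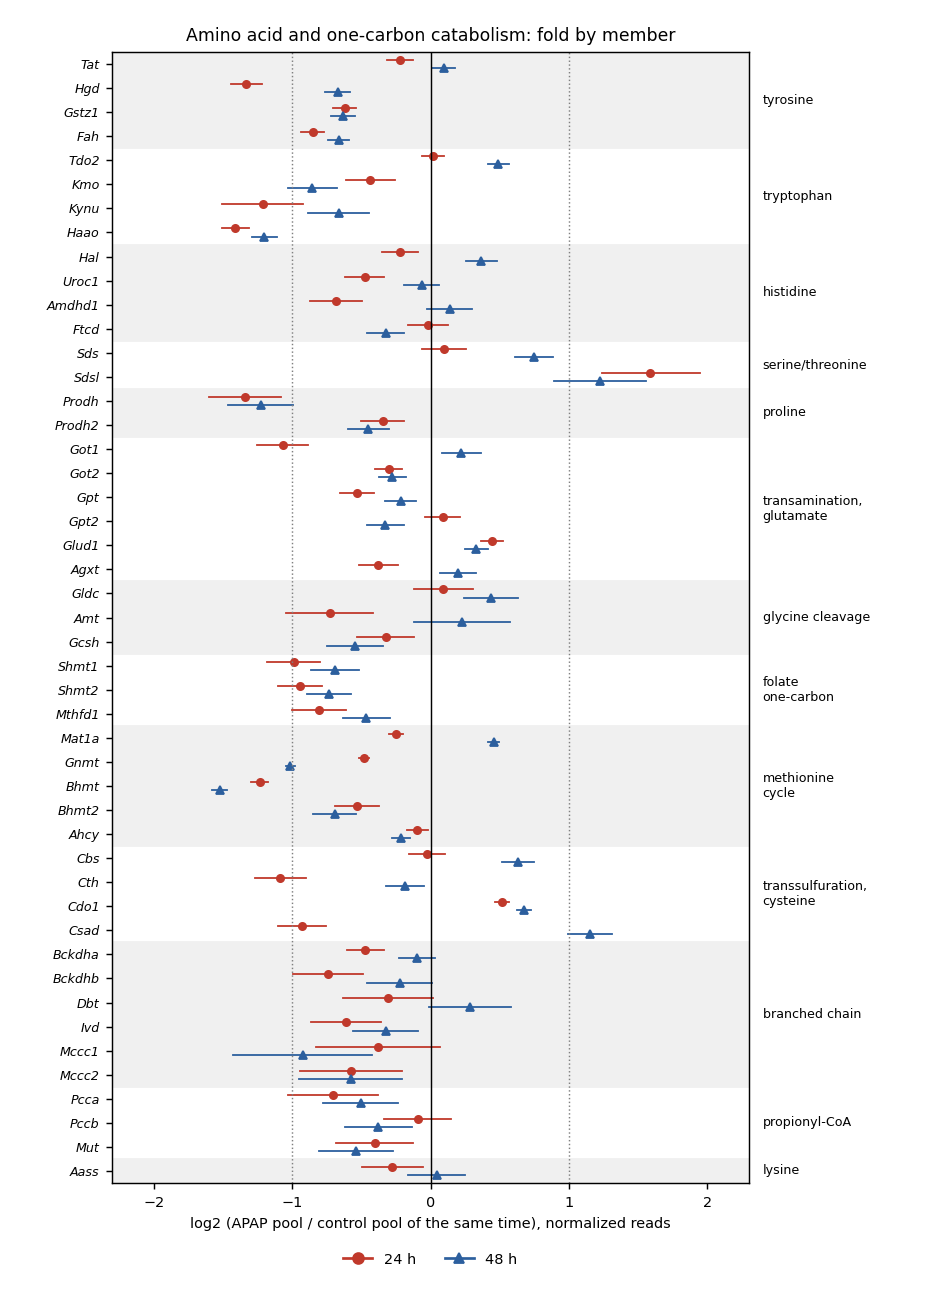
Log2 fold of APAP over control (x axis) for each of the 47 genes (y axis), grouped by pathway, with circles for 24 h, triangles for 48 h, lines for the 95% counting interval and dotted lines at 2-fold. Most circles lie left of 0, and for 32 of the 47 genes the triangle lies to the right of the circle.

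Of the 4 genes of tyrosine breakdown, 1 (Hgd) was lower at 24 h and 0 at 48 h by the 2-fold measure. Hgd (homogentisate dioxygenase, which opens the aromatic ring; chr16:37580153-37632020, plus strand) had 2188 and 2496 normalized reads in the control pools (24 h, 48 h) and 869.6 and 1569 in the APAP pools. It was 2.52 times lower (2.33 to 2.72) at 24 h and 1.59 times lower (1.49 to 1.7) at 48 h, and both APAP pools were below both control pools. The next enzymes on the path, Gstz1 (maleylacetoacetate isomerase) and Fah (fumarylacetoacetate hydrolase, the last step), were 1.54 times lower and 1.8 times lower at 24 h and 1.55 times lower and 1.58 times lower at 48 h. Tat (tyrosine aminotransferase, the entry step, a classical target of glucocorticoids) was 1.16 times lower (1.09 to 1.24) at 24 h and 1.07 times higher (1.01 to 1.13) at 48 h. Hpd, which converts hydroxyphenylpyruvate to homogentisate, is counted in an entry together with Rhof, AI480526, Gm26745 and Gm43409. That entry was 1.55 times lower (1.5 to 1.6) at 24 h and 1.48 times lower (1.44 to 1.53) at 48 h, and the share of Hpd in its reads is not known. The median log2 fold of the 4 genes was -0.74 (24 h) and -0.65 (48 h).

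The kynurenine pathway, which degrades tryptophan and supplies a precursor of NAD, held 2 of 4 genes that were lower at 24 h (Haao and Kynu) and 1 at 48 h (Haao). Haao (hydroxyanthranilate dioxygenase, which makes the precursor of quinolinic acid; chr17:83831156-83847963, minus strand) had 2985 and 3179 normalized reads in the control pools (24 h, 48 h) and 1123 and 1381 in the APAP pools. It was 2.66 times lower (2.49 to 2.84) at 24 h and 2.3 times lower (2.16 to 2.45) at 48 h. Kynu (kynureninase; chr2:43555329-43682715, plus strand) had 308 and 427 normalized reads in the control pools (24 h, 48 h) and 133 and 269 in the APAP pools. Its level was 2.32 times lower (1.9 to 2.84) at 24 h and 1.59 times lower (1.36 to 1.85) at 48 h. For both genes the control pools were above the APAP pools at either time. Kmo (kynurenine monooxygenase) was 1.35 times (24 h) and 1.81 times lower (48 h). In contrast, Tdo2 (tryptophan dioxygenase, the entry step) was 1.01 times higher (0.959 to 1.07) at 24 h and 1.4 times higher (1.33 to 1.48) at 48 h. Afmid (arylformamidase, the step after Tdo2) is counted jointly with Syngr2 and Gm20708 in an entry that was 1.51 times (24 h) and 1.18 times lower (48 h), and the share of Afmid in its reads is not known. Over the 4 genes the median log2 fold was -0.82 (24 h) and -0.76 (48 h).

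Of the proline genes, Prodh was lower at both time points and Prodh2 did not reach 2-fold. Prodh (proline dehydrogenase, the first step in mitochondria; chr16:18060357-18090203, minus strand) had 412 and 494 normalized reads in the control pools (24 h, 48 h) and 163 and 211 in the APAP pools. This amounted to 2.53 times lower (2.12 to 3.03) at 24 h and 2.34 times lower (1.99 to 2.76) at 48 h, with both APAP pools below both control pools. Set against the control pool at 24 h, the APAP pool at 48 h was 1.95 times lower. Prodh2, which acts on hydroxyproline, was 1.27 times (24 h) and 1.36 times lower (48 h). The 3′ end of Prodh overlaps Dgcr6 on the opposite strand, and whether strand was used in counting is not given in the sources used here.

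In serine and threonine deamination, Sdsl was higher at both time points. Sdsl (serine dehydratase-like; chr5:120458186-120472810, minus strand) had 95.5 and 113 normalized reads in the control pools (24 h, 48 h) and 287 and 263 in the APAP pools. It was 3.01 times higher (2.36 to 3.86) at 24 h and 2.33 times higher (1.86 to 2.95) at 48 h, and both APAP pools were above both control pools. Its neighbour on chromosome 5, Sds, codes for serine dehydratase, which turns serine into pyruvate and is known to respond to glucagon and glucocorticoids. Sds was 1.07 times higher (0.956 to 1.19) at 24 h and 1.68 times higher (1.53 to 1.85) at 48 h.

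Prodh, Haao and Bhmt, the 3 genes at least 2-fold lower at both time points, are shown with the sequence before their RefSeq start, so that the motifs can be read directly. The sequences are from RefSeq (GRCm38.p6, minus strand) and run 5′ to 3′. Capitals mark matches to a searched motif. Bases that belong to an annotated untranslated exon are left out, so that 228 bases are printed for Haao, 148 for Prodh and 47 for Bhmt. In the GENCODE annotation all 3 genes reach farther upstream than this start, so that the windows lie within or next to the gene spans given above.
Haao chr17:83846813-83847040: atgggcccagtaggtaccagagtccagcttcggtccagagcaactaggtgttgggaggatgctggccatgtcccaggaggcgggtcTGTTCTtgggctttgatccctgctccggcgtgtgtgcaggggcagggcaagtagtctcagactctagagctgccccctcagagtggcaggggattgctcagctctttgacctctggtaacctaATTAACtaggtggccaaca
Prodh chr16:18089293-18089440: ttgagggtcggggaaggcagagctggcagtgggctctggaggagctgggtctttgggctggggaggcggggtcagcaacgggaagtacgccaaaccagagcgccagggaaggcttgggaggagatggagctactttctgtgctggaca
Bhmt chr13:93637962-93638008: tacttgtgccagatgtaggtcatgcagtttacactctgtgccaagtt
Motifs were searched on both strands in the whole 250 bases before each start, bases not printed included. The motifs were TGACGTCA (cAMP response element), TTGCNNAA (C/EBP) and CAAAGTCCA (HNF4). Further ones were GTTAAT, which is part of the HNF1 site, then AGAACA, which is part of the glucocorticoid receptor site, and lastly TATAAA, the TATA box. No matches overlapped in these windows. Haao held the HNF1 letters and the glucocorticoid receptor letters, both on the reverse strand, and the windows of Prodh and Bhmt held none of the 6 motifs. Of all 32851 windows of this length, 6.43% held the HNF1 letters, 16.1% those of the glucocorticoid receptor and 12.4% the TATA box. The cAMP response element was in 1.55%, the C/EBP motif in 9.56% and the HNF4 motif in 0.384% of windows. Counted by gene, over 27025 genes, these shares were 7.49%, 18.2% and 14.3%, then 1.77%, 10.8% and 0.451%. Of the 38 members with a window in the table, 5 held the HNF1 letters (Haao, Ftcd, Prodh2, Got2 and Bckdhb) and 4 those of the glucocorticoid receptor (Haao, Agxt, Bckdhb and Pccb). The C/EBP motif was in 4 (Hgd, Hal, Prodh2 and Aass) and the TATA box in 5 (Hgd, Tdo2, Hal, Ftcd and Got2), while 0 held the cAMP response element or the HNF4 motif. These matches describe the sequence only.

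None of the 4 genes of histidine breakdown reached 2-fold at either time. Farthest from control was Amdhd1 (imidazolonepropionase, the third step), which had 588 and 603 normalized reads in the control pools (24 h, 48 h) and 365 and 663 in the APAP pools. Amdhd1 was 1.61 times lower (1.41 to 1.83) at 24 h and 1.1 times higher (0.983 to 1.23) at 48 h. The APAP pool at 24 h was below, and the APAP pool at 48 h above, both control pools. Hal (histidine ammonia lyase, the entry step) was 1.16 times lower (24 h) and 1.29 times higher (48 h), and Uroc1 (urocanase) was 1.39 times (24 h) and 1.05 times lower (48 h). Ftcd, which passes the formimino group of histidine to folate, was 1.01 times lower (0.918 to 1.12) at 24 h and 1.25 times lower (1.14 to 1.38) at 48 h. The median log2 fold of the 4 genes was -0.35 (24 h) and 0.04 (48 h).

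Of the aminotransferases and glutamate dehydrogenase, Got1 stood out. Got1 (cytosolic aspartate aminotransferase, whose protein is measured in serum as AST; chr19:43499752-43524605, minus strand) had 729 and 743 normalized reads in the control pools (24 h, 48 h) and 348 and 867 in the APAP pools. It was 2.1 times lower (1.85 to 2.38) at 24 h and 1.17 times higher (1.06 to 1.29) at 48 h. The APAP pool at 24 h was the low library while the other 3 lay between 729 and 867. Its mitochondrial counterpart Got2 was 1.23 times (24 h) and 1.21 times lower (48 h). Gpt (cytosolic alanine aminotransferase, the source of serum ALT activity) was 1.45 times (24 h) and 1.16 times lower (48 h). The mitochondrial Gpt2 was 1.06 times higher (24 h) and 1.25 times lower (48 h). Agxt (alanine-glyoxylate aminotransferase, which detoxifies glyoxylate) was 1.3 times lower (24 h) and 1.15 times higher (48 h). Glud1 (glutamate dehydrogenase) was 1.36 times higher (1.29 to 1.44) at 24 h and 1.26 times higher (1.19 to 1.33) at 48 h. Its 3′ end is 97.6% identical over 250 bases to that of the pseudogene Glud-ps, which had 1 to 3 reads per library.

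None of the 3 genes of the folate branch reached 2-fold, but all were below control at both time points. Shmt1 (cytosolic serine hydroxymethyltransferase, which transfers a carbon unit from serine to folate) had 631 and 707 normalized reads in the control pools (24 h, 48 h) and 318 and 438 in the APAP pools. It was 1.99 times lower (1.74 to 2.27) at 24 h and 1.61 times lower (1.43 to 1.82) at 48 h. Shmt2, the mitochondrial enzyme, was 1.92 times lower (1.72 to 2.14) at 24 h and 1.67 times lower (1.49 to 1.86) at 48 h. Mthfd1, which interconverts the folate-bound carbon units, was 1.75 times lower (1.53 to 2.0) at 24 h and 1.38 times lower (1.23 to 1.55) at 48 h. The whole interval of each lay below the control level at both time points, as it did in 11.1% of all genes and 49.9% of the 1117 abundant ones. Their median log2 fold was -0.94 (24 h) and -0.69 (48 h). For Shmt1 and Shmt2, the 3′ ends overlap Smcr8 and Ndufa4l2 on the opposite strand.

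The glycine cleavage system, which feeds carbon units from glycine into folate, showed no common direction. Amt (its aminomethyltransferase subunit) had 217 and 134 normalized reads in the control pools (24 h, 48 h) and 131 and 157 in the APAP pools. It was 1.66 times lower (1.33 to 2.06) at 24 h and 1.17 times higher (0.921 to 1.49) at 48 h. However, the control pool at 48 h was itself 1.62 times lower than that at 24 h, and both APAP pools lay nearer to the lower control pool than to the higher one. Gldc (glycine decarboxylase) was 1.07 times (24 h) and 1.35 times higher (48 h), and Gcsh (the lipoyl carrier) was 1.25 times (24 h) and 1.46 times lower (48 h).

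In the methionine cycle, Bhmt was lower at both time points and Gnmt at 48 h, while the other 3 genes did not reach 2-fold. Bhmt (betaine-homocysteine methyltransferase, which remethylates homocysteine with betaine; chr13:93616675-93637961, minus strand) had 6809 and 10143 normalized reads in the control pools (24 h, 48 h) and 2892 and 3524 in the APAP pools. It was 2.35 times lower (2.26 to 2.46) at 24 h and 2.88 times lower (2.77 to 2.99) at 48 h, the lowest fold of the 47 genes at 48 h. Both APAP pools were below both control pools. Gnmt (glycine methyltransferase, which disposes of surplus S-adenosylmethionine; chr17:46725664-46729168, minus strand) had 13890.0 and 22075 normalized reads in the control pools (24 h, 48 h) and 9950.0 and 10924 in the APAP pools. It was 1.4 times lower (1.36 to 1.43) at 24 h and 2.02 times lower (1.98 to 2.07) at 48 h, and again both APAP pools were below both control pools. The control pools of this group differed by more than those of the other groups, with a median log2 fold of 0.57 between them, compared to at most 0.25 for any other group. Gnmt was 1.59 times higher in the control pool at 48 h than in that at 24 h, Bhmt 1.49 times higher, Mat1a 1.48 times higher and Ahcy 1.46 times higher. Against the control pool at 24 h, the APAP pool at 48 h was therefore only 1.27 times lower for Gnmt and 1.93 times lower for Bhmt.

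Mat1a (the liver form of methionine adenosyltransferase, which makes S-adenosylmethionine) had 6558 and 9730.1 normalized reads in the control pools (24 h, 48 h) and 5519 and 13349.6 in the APAP pools. It was 1.19 times lower (1.15 to 1.23) at 24 h and 1.37 times higher (1.34 to 1.41) at 48 h. The APAP pool at 48 h was the highest and the APAP pool at 24 h the lowest of the 4 libraries. Against the control pool at 24 h, the APAP pool at 48 h was 2.04 times higher. Ahcy (which hydrolyses S-adenosylhomocysteine) was 1.07 times (24 h) and 1.16 times lower (48 h), less than the distance between its control pools. Bhmt2, which uses S-methylmethionine in place of betaine, was 1.45 times lower (1.29 to 1.62) at 24 h and 1.62 times lower (1.45 to 1.81) at 48 h. The last 300 bases of Bhmt share a stretch of 104 bases (96.2% identity) with Ecsit, which had 174 to 199 reads per library, and those of Bhmt2 share 103 bases with Ercc6l, which had 1 to 3.

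**Figure D3:**
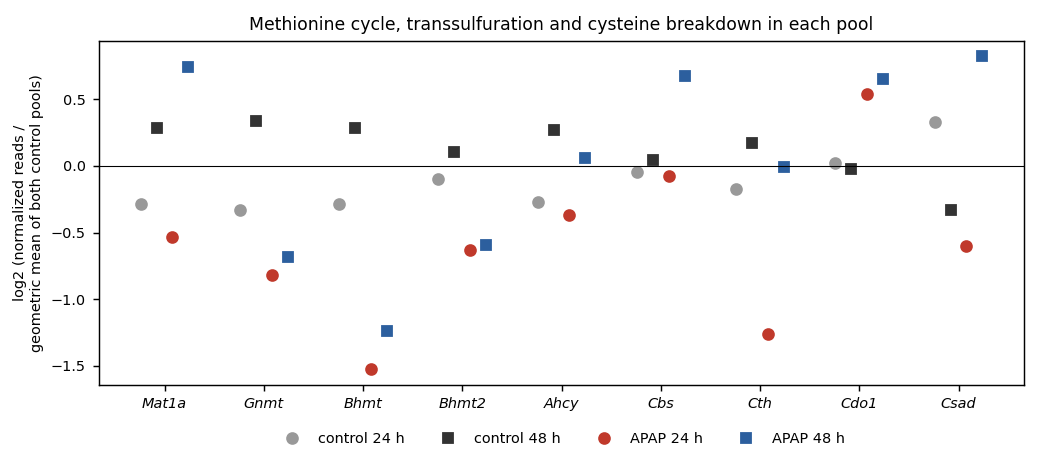
Log2 of the normalized reads of each pool over the geometric mean of both control pools (y axis) for the 9 genes of the methionine cycle, transsulfuration and cysteine breakdown (x axis), with circles for 24 h and squares for 48 h. Gnmt, Bhmt and Bhmt2 are below the control pools at both time points, and Cth is low in the APAP pool at 24 h only. Csad is lowest in the APAP pool at 24 h but also low in the control pool at 48 h. Mat1a, Cbs, Cdo1 and Csad are highest in the APAP pool at 48 h.

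In transsulfuration and cysteine breakdown, the fold of all 4 members was higher at 48 h than earlier. Cth (cystathionine gamma-lyase, which releases cysteine; chr3:157894248-157925077, minus strand) had 713 and 904 normalized reads in the control pools (24 h, 48 h) and 336 and 796 in the APAP pools. It was 2.12 times lower (1.87 to 2.42) at 24 h and 1.14 times lower (1.03 to 1.25) at 48 h, so that the APAP pool at 24 h was the low library. Cbs (cystathionine beta-synthase, which joins homocysteine and serine) was 1.02 times lower (0.932 to 1.12) at 24 h and 1.55 times higher (1.43 to 1.68) at 48 h. Csad (cysteine sulfinic acid decarboxylase, which leads to taurine; chr15:102176999-102204724, minus strand) had 776 and 492 normalized reads in the control pools (24 h, 48 h) and 408 and 1092 in the APAP pools. This was 1.9 times lower (1.69 to 2.14) at 24 h and 2.22 times higher (1.99 to 2.48) at 48 h. However, the control pool at 48 h was 1.58 times lower than that at 24 h. Against that control pool at 48 h, the APAP pool at 24 h was only 1.21 times lower. Relative to the control pool at 24 h, Csad was 1.41 times higher in the APAP pool at 48 h, and it was 2.68 times higher there than in the APAP pool at 24 h. Cdo1 (cysteine dioxygenase, the first step of cysteine oxidation) was 1.43 times higher (1.38 to 1.48) at 24 h and 1.6 times higher (1.54 to 1.65) at 48 h, above both control pools at either time. The median log2 fold of the 4 genes was -0.48 (24 h) and 0.65 (48 h).

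**Figure D4:**
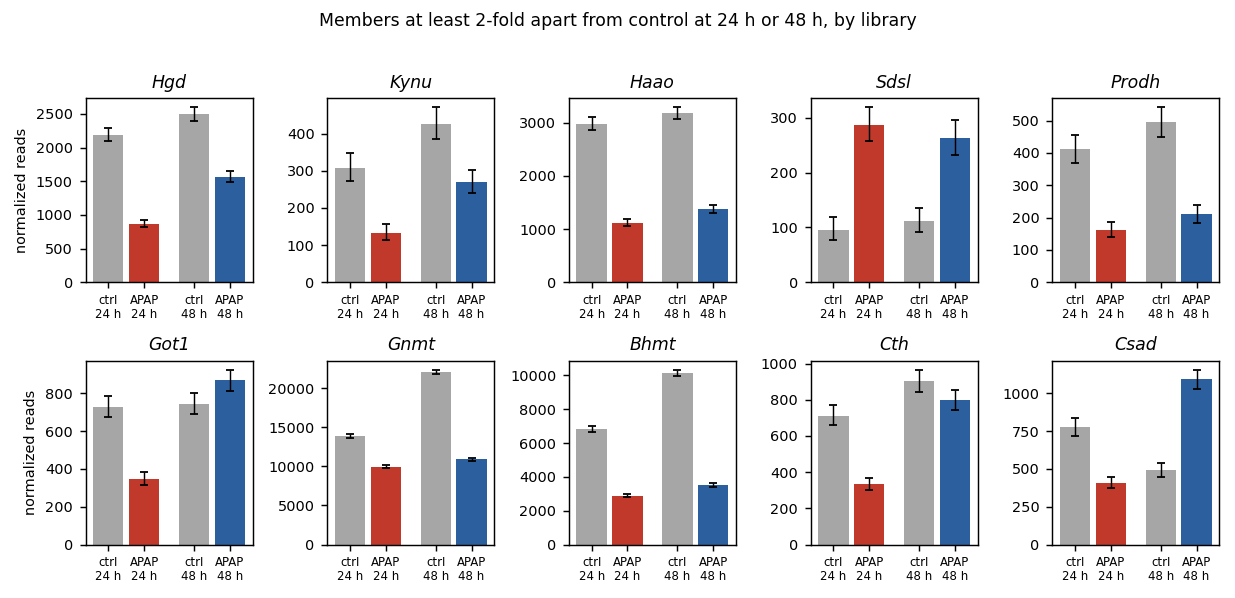
Normalized reads (y axis, starting at 0) in each of the 4 libraries (x axis) for the 10 genes at least 2-fold lower or higher than control at 24 h or 48 h, with error bars for the 95% exact counting interval. Hgd, Kynu, Haao, Prodh, Gnmt and Bhmt are lower in both APAP pools than in both control pools, Sdsl is higher in both, and Got1, Cth and Csad are low in the APAP pool at 24 h but not at 48 h. Csad is also low in the control pool at 48 h.

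Of the 6 genes of branched-chain amino acid breakdown, 0 reached 2-fold, while all 6 were below control at 24 h and 5 at 48 h. Below control were 49.6% and 51.3% of all genes (24 h, 48 h) and 57.0% and 60.4% of those whose mean reached 100. The whole interval lay below control for 4 of the 6 at 24 h and for 3 at 48 h (all genes 18.3% and 18.9%). The farthest from control was Mccc1 (a subunit of methylcrotonyl-CoA carboxylase in leucine breakdown), with 96.6 and 97.6 normalized reads in the control pools (24 h, 48 h) and 74.1 and 51.6 in the APAP pools. It was 1.3 times lower (0.956 to 1.78) at 24 h and 1.89 times lower (1.34 to 2.69) at 48 h, and its interval at 24 h held the control level. The partner subunit Mccc2 was 1.49 times lower (1.16 to 1.92) at 24 h and 1.49 times lower (1.15 to 1.93) at 48 h. Of the branched-chain ketoacid dehydrogenase complex, which commits all 3 branched-chain amino acids to oxidation, Bckdha was 1.39 times (24 h) and 1.07 times lower (48 h). Bckdhb was 1.67 times (24 h) and 1.17 times lower (48 h), and Dbt was 1.24 times lower (24 h) and 1.22 times higher (48 h). Ivd (isovaleryl-CoA dehydrogenase, the leucine branch) was 1.53 times (24 h) and 1.25 times lower (48 h). The median log2 fold of the 6 genes was -0.52 (24 h) and -0.27 (48 h).

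Valine, isoleucine, methionine and threonine drain into the propionyl-CoA branch. Farthest below control in this branch was Pcca, a subunit of propionyl-CoA carboxylase, at 24 h, and Mut at 48 h. Pcca had 202 and 270.2 normalized reads in the control pools (24 h, 48 h) and 124 and 190.3 in the APAP pools. Pcca was 1.63 times lower (1.3 to 2.04) at 24 h and 1.42 times lower (1.18 to 1.72) at 48 h, and both APAP pools were below both control pools. The other subunit, Pccb, was 1.07 times (24 h) and 1.3 times lower (48 h). Mut (methylmalonyl-CoA mutase, which yields succinyl-CoA) was 1.32 times lower (1.09 to 1.61) at 24 h and 1.45 times lower (1.21 to 1.75) at 48 h. Lysine breakdown was represented by Aass (aminoadipic semialdehyde synthase, its entry step), which had 367 and 387 normalized reads in the control pools (24 h, 48 h) and 303 and 399 in the APAP pools. Aass was 1.21 times lower (1.04 to 1.41) at 24 h and 1.03 times higher (0.895 to 1.19) at 48 h. The 3′ ends of Mccc1, Pcca and Bckdha overlap genes on the opposite strand, as do those of Sds and Gnmt.

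The time points were compared by the ratio of the fold at 48 h to the fold at 24 h. This ratio lay above 1 with its whole counting interval for 26 genes, below 1 for 6, and held 1 for 15. Of all 12113 genes, 8.84% lay above and 11.0% below 1 in this way, and of the 1117 abundant genes, whose intervals are narrower, 25.2% and 34.5%. The largest was that of Csad with 4.22 (3.59 to 4.97), followed by Got1 with 2.45 (2.08 to 2.88), Amt with 1.93 (1.4 to 2.68) and Cth with 1.87 (1.59 to 2.2). The lowest among genes whose interval lay below 1 was that of Gnmt with 0.691 (0.668 to 0.715). The ratios of Csad, Amt and Gnmt contain the difference between the control pools. Between the APAP pools alone, Csad was 2.68 times, Got1 2.5 times, Mat1a 2.42 times and Cth 2.37 times higher at 48 h. Gnmt was 1.1 times (1.07 to 1.13) higher there as well. The ratio of Prodh was 1.08 (0.846 to 1.38) and that of Sdsl 0.776 (0.551 to 1.09), so that both intervals held 1. In all, 29 genes were below control at both time points, 6 above at both, 11 below at 24 h and above at 48 h, and 1 (Gpt2) the reverse. With whole intervals, 23 members (48.9%) were below control at both time points, compared to 11.1% of all genes and 49.9% of the 1117 abundant ones.

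Summed over the 47 genes, the members took 1.34% (1.33 to 1.35) of all counted reads in control 24 h and 1.17% (1.16 to 1.18) in APAP 24 h. At 48 h the shares were 1.67% (1.66 to 1.68) and 1.65% (1.64 to 1.67). In normalized reads the sums were 74266 and 92964 in the control pools (24 h, 48 h) and 56885 and 76589 in the APAP pools. The APAP pool at 24 h was the lowest on either scale. At 48 h the shares were nearly equal, whereas the sum of normalized reads was lower after APAP, since the size factors and the totals of the libraries differ. Gnmt, Mat1a, Cdo1 and Bhmt had the highest counts among the members.

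Other enzymes of the same pathways, 69 genes listed apart from the members, were examined next. Of these 66 were found and 64 had enough reads. Their median log2 fold was -0.51 (24 h) and -0.45 (48 h), and 58 were below the control pool at 24 h and 55 at 48 h (90.6% and 85.9%, against 49.6% and 51.3% of all genes). A difference between them and the members was not tested. At 24 h, 11 were at least 2-fold lower and 1 higher, and at 48 h 9 were lower and 0 higher. That is 17.2% lower at 24 h (all genes 5.68%) and 14.1% at 48 h (5.61%). Of the 1117 abundant genes, 10.2% and 13.4% were lower (24 h, 48 h), so that the share at 48 h was close to theirs. Below control were 68.8% and 70.7% of those abundant genes. Measured against both control pools, 10 of the 64 genes remained lower at 24 h, Bbox1 being lost, and 4 at 48 h, namely Qdpr, Oat, Gcat and Mmab. Oat (ornithine aminotransferase, which links ornithine to proline and glutamate) had 659 and 1089 normalized reads in the control pools (24 h, 48 h) and 277 and 211 in the APAP pools. It was 2.38 times lower (2.08 to 2.74) at 24 h and 5.16 times lower (4.47 to 5.99) at 48 h, farther below control than any of the 47 members at 48 h. Its control pool at 48 h was 1.65 times higher than that at 24 h, and against the latter the APAP pool at 48 h was 3.13 times lower. The glutaminase Gls2 of the same group was 2.19 times (24 h) and 1.24 times lower (48 h). Among the genes of aromatic amino acids, Qdpr (dihydropteridine reductase, which regenerates the cofactor of phenylalanine hydroxylase) was 2.66 times lower (2.47 to 2.86) at 24 h and 2.32 times lower (2.16 to 2.49) at 48 h. Aadat, which transaminates kynurenine and aminoadipate, had 215 and 381 normalized reads in the control pools (24 h, 48 h) and 141 and 148 in the APAP pools. It was 1.53 times (24 h) and 2.57 times lower (48 h), but only 1.45 times lower at 48 h when set against the control pool at 24 h. Pcbd1, which dehydrates the pterin cofactor on which Qdpr acts, was 1.71 times (24 h) and 1.82 times lower (48 h). All 10 genes of that group were below control at both time points, 9 of them with the whole interval at each time. Whole intervals lay below control in 18.3% and 18.9% of all genes (24 h, 48 h) and in 57.1% and 61.3% of the 1117 abundant ones.

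In the group of glycine, choline and folate, Gcat (which completes threonine breakdown to glycine) was 2.48 times (24 h) and 2.24 times lower (48 h). Aldh1l1 (formyltetrahydrofolate dehydrogenase) was 2.35 times lower (2.23 to 2.48) at 24 h and 2.14 times lower (2.04 to 2.23) at 48 h. Pipox (sarcosine and pipecolate oxidation) was 2.22 times (24 h) and 1.21 times lower (48 h). Of the sulfur genes, Suox (sulfite oxidase) was 2.24 times (24 h) and 1.28 times lower (48 h). Ethe1 (persulfide dioxygenase) was 2.08 times (24 h) and 1.42 times lower (48 h). Nnmt (nicotinamide methyltransferase, which consumes S-adenosylmethionine) was the only one of the 64 genes at least 2-fold higher at 24 h. It had 518 and 975 normalized reads in the control pools (24 h, 48 h) and 1284 and 1556 in the APAP pools. This was 2.48 times higher (2.23 to 2.76) at 24 h and 1.6 times higher (1.47 to 1.73) at 48 h. Its control pool at 48 h was 1.88 times higher than that at 24 h, and against it the APAP pool at 24 h was 1.32 times higher. In the branched-chain and propionyl-CoA group, Hibadh of valine breakdown was 2.36 times (24 h) and 1.81 times lower (48 h). Hibch of the same path was 1.51 times (24 h) and 2.15 times lower (48 h). Mmab, which makes the cobalamin cofactor of Mut, was 1.95 times lower (1.35 to 2.83) at 24 h and 2.67 times lower (1.81 to 3.99) at 48 h. In the lysine group, Bbox1 of carnitine synthesis was 2.0 times (24 h) and 1.43 times lower (48 h). Aldh9a1 of the same path was 1.93 times (24 h) and 1.94 times lower (48 h), and Aldh7a1 of lysine breakdown was 1.71 times (24 h) and 1.75 times lower (48 h).

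Genes of amino acid synthesis and transport were read for comparison. Of 7 synthesis genes with enough reads, 0 were at least 2-fold lower at either time, 1 was higher at 24 h and 2 at 48 h (all genes 5.85% and 5.76% higher). Their median log2 fold was 0.34 (24 h) and 0.61 (48 h). Psat1 (phosphoserine aminotransferase of serine synthesis) had 19.3 and 8.58 normalized reads in the control pools (24 h, 48 h) and 52.0 and 37.5 in the APAP pools. It was 2.69 times higher (1.55 to 4.91) at 24 h and 4.37 times higher (2.02 to 10.8) at 48 h. Asns (asparagine synthetase) had 20.5 and 8.58 normalized reads in the control pools (24 h, 48 h) and 21.3 and 30.0 in the APAP pools. Its level was 1.04 times higher (0.545 to 2.02) at 24 h and 3.5 times higher (1.58 to 8.79) at 48 h. These genes had few reads, and the control pools differed, Psat1 being 2.25 times and Asns 2.39 times lower at 48 h. Against the control pool at 24 h, the APAP pool at 48 h was 1.94 times higher for Psat1 and 1.47 times for Asns, both under 2-fold. Of 15 amino acid transporters, 0 were lower by 2-fold and 1 was higher at each time, beside the same shares of all genes. At 24 h this was Slc3a2 (the shared heavy chain of several transporters), 2.05 times higher (1.68 to 2.51), and at 48 h Slc7a8, 2.73 times higher (1.19 to 7.01). At the other time point they were 1.55 times higher and 1.69 times higher. Slc7a8 had 4.55 and 8.58 normalized reads in the control pools (24 h, 48 h) and 7.67 and 23.4 in the APAP pools, so that it reached the mean of 10 only through the APAP pool at 48 h. Slc1a4 was 1.97 times lower (1.06 to 3.73) at 24 h and 1.2 times higher (0.603 to 2.45) at 48 h, but at 24 h only 1.06 times lower than the control pool at 48 h.

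Markers of the cell types that liver RNA can hold were read beside these values, since fewer hepatocytes and less RNA per hepatocyte cannot be told apart in pooled tissue. The 9 hepatocyte markers found in the table were led by albumin (Alb). Their normalized reads summed to 541886 and 557873 in the control pools (24 h, 48 h) and 523542 and 531251 in the APAP pools. Of them, 0 were at least 2-fold lower at either time, while 3 (Fga, Fgb and Fgg, the fibrinogen chains) were at least 2-fold higher at 24 h. At each time 5 of the 9 had whole intervals below control and 4 above it. Whole intervals lay below control in 18.3% and 18.9% of all genes (24 h, 48 h) and in 57.1% and 61.3% of the 1117 abundant ones. Among the lower markers, Apoa2 (apolipoprotein A-II) was 1.45 times (24 h) and 1.62 times lower (48 h), and Ttr (transthyretin) was 1.78 times lower at 24 h. Of 11 pericentral markers with enough reads, 8 were at least 2-fold lower at 24 h and 9 at 48 h, beside 5.68% and 5.61% of all genes. Their median log2 fold was -2.12 (24 h) and -1.48 (48 h). They summed to 19545 and 21488 in the control pools (24 h, 48 h) and 8011 and 6926 in the APAP pools, with Cyp2e1 the most abundant. The 12 periportal markers, led by Ass1, summed to 43296 and 53761 in the control pools (24 h, 48 h) and 30199 and 43497 in the APAP pools. Of these, 4 were lower and 1 higher at 24 h and 2 lower and 1 higher at 48 h (all genes higher, 5.85% and 5.76%), and the median log2 fold was -0.42 (24 h) and -0.24 (48 h). Gls2 is counted among both the periportal markers and the other pathway genes. By the fold of their sums, the members (0.766 at 24 h, 0.824 at 48 h) lay close to the periportal markers (0.698 and 0.809). The amino acid transporters (0.788 and 0.771) lay close to the members as well, so that this is not particular to the periportal list. Abundant genes weigh most in such sums. No test of a difference between these lists was made.

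The marker lists of non-parenchymal cells had higher sums after APAP, though not in every gene. The 10 macrophage and monocyte markers found, led by Lyz2, summed to 789 and 782 in the control pools (24 h, 48 h) and 1147 and 1703 in the APAP pools. Of the 9 with enough reads, 3 were below control at 24 h and 2 at 48 h. Clec4f, a marker of resident Kupffer cells and the most abundant of the list in the control pools, had 305 and 279.8 normalized reads in the control pools (24 h, 48 h) and 163 and 276 in the APAP pools. It was 1.87 times lower (1.55 to 2.27) at 24 h and 1.02 times lower (0.856 to 1.2) at 48 h. The 5 neutrophil markers found, led by S100a8, summed to 18.2 and 18.2 in the control pools (24 h, 48 h) and 213 and 160.3 in the APAP pools. Only 2 of these 5 had enough reads, and the control sums are low. Stellate cell markers, led by Dcn, summed to 451 and 479 in the control pools (24 h, 48 h) and 566 and 1074 in the APAP pools. Of these 7 markers, 3 were below control at 24 h and 1 at 48 h. For cholangiocytes, led by Sox9, the sums were 143 and 181 in the control pools (24 h, 48 h) and 398 and 307 in the APAP pools, and 2 of the 5 markers had enough reads. Endothelial markers, led by Clec4g, summed to 717 and 779 in the control pools (24 h, 48 h) and 787 and 823 in the APAP pools, and 4 of the 7 were below control at each time. The proliferation genes, led by Pcna, summed to 75.0 and 92.2 in the control pools (24 h, 48 h) and 113 and 138 in the APAP pools, and 2 of the 6 had enough reads. Csf3r had 0 reads in the control pool at 48 h, Cxcr2 in the APAP pool at 48 h, Ccnb1 in the control pool at 24 h and the APAP pool at 48 h, and Cdk1 in the control pool at 24 h. The part of these cell types and of the zones of the liver lobule in the lower values of the 47 genes was not tested.

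**Figure D5:**
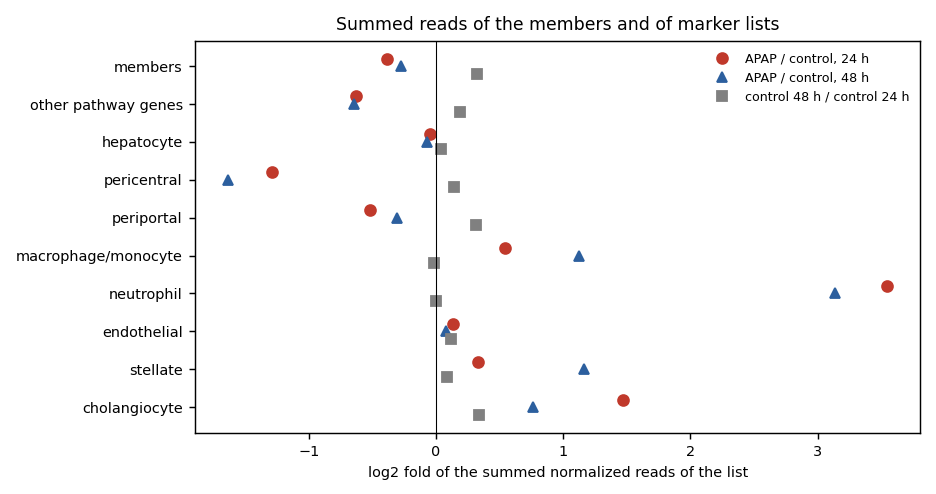
Log2 fold of the summed normalized reads (x axis) of the 47 members, the other pathway genes and the marker lists (y axis), with circles for APAP over control at 24 h, triangles for 48 h and squares for control 48 h over control 24 h. The members lie near the periportal markers, the pericentral markers are far to the left, and those of neutrophils, whose sums in the control pools are low, are far to the right.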

How the data were processed

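Livers of control and APAP-treated mice were sequenced as 4 pools with 1 library each. According to the study's methods, RNA was DNase-treated, 3′ libraries were prepared with unique molecular identifiers, duplicate reads were removed, reads were trimmed with cutadapt, poly(A)-tails were clipped, and reads were mapped to mm10 and counted per gene by HTSeq. The authors deposited raw counts per gene, which are not normalized. Mapper, versions, strand setting and annotation are not given in the sources used here. The table further holds 4 columns of counts scaled to library totals (RPM) and 6 columns of the authors' own comparisons (log2 ratios, p-values and false discovery rates), none of which were used. Of the 27027 entries, 2430 join several genes.

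Counts were divided by size factors from DESeq2 1.42.0 (0.880 for control 24 h, 0.933 for control 48 h, 1.17 for APAP 24 h, 1.07 for APAP 48 h) in R 4.3.3. Genes whose mean reached 10 normalized reads were kept (12113). No test was run, because a group is 1 library. Folds are ratios of normalized reads, with a count of under 3 reads set to 3 in numerator and denominator alike and no pseudocount. Intervals are 95% exact intervals of the share of reads in 1 of 2 libraries, and for the ratio of the folds at 48 h and 24 h the exact conditional interval of the 4 counts. Python 3.11.15 was used for these steps (scipy 1.17.1, pandas 2.3.3, numpy 2.4.6, and matplotlib 3.10.9 for plots), and the procedure was tested on simulated data. Alternatives were TMM factors (edgeR 4.0.16), library totals, no filter, a filter at 50 normalized reads, a pseudocount of 1, the control pool of the other time, both control pools summed, thresholds of 1.5-fold and 3-fold, and an interval wholly beyond 2-fold. Positions and 3′ ends came from GENCODE mouse release M21 (GRCm38), where the last 300 bases of each member were searched for stretches of at least 100 bases and 95% identity in other genes.

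Members, pathway lists and marker lists were chosen with earlier results of these data known. Named with values in all libraries were members at least 2-fold apart at either time and, in each of the 13 groups, the member with the largest change. Of each other pathway, synthesis and transport list, up to 3 genes with the largest change were named, and of each marker list the most abundant gene and those with 0 reads in a library. Values of Mat1a, of Clec4f, Apoa2 and Ttr, of the fibrinogen genes and of members given without all 4 libraries were named beyond this rule, to account for every member. Of the synthesis list, 1 gene that the rule names is not reported here. The comparison of protein sequences that had been planned for paralog pairs was not done here.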

Additional observations from a re-analysis of the deposited data

Results flagged for a closer look

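For 6 of the 47 genes the interval of the fold lay below the control level at 24 h and above it at 48 h, so that the single APAP pool of each time moved in opposite directions. The same held for 0.718% of all 12113 genes and for 3.4% of the 1117 genes whose mean reached 500. Which genes are in this set depends on scaling. With library totals, the log2 shift of 0.19 at 24 h makes the intervals of Tat and Hal at 24 h hold the control level. Other members, such as Uroc1 and Amdhd1, then enter the set. The difference between the time points was not tested, because each group is 1 pool. The ratio of the fold at 48 h to the fold at 24 h was 4.22 for Csad, 2.45 for Got1, 1.63 for Mat1a, 1.5 for Hal, 1.49 for Agxt and 1.24 for Tat. Csad, which leads from cysteine to taurine, had the widest swing, from 1.9 times lower (1.69 to 2.14) to 2.22 times higher (1.99 to 2.48), beside a control pool at 48 h that was 1.58 times lower than that at 24 h. Against that control pool at 48 h, Csad in the APAP pool at 24 h was only 1.21 times lower. Got1 went from 2.1 times lower (1.85 to 2.38) to 1.17 times higher (1.06 to 1.29), with control pools 1.02-fold apart. Mat1a went from 1.19 times lower (1.15 to 1.23) to 1.37 times higher (1.34 to 1.41), while its control pool at 48 h was 1.48 times higher than that at 24 h. At 24 h and 48 h, Hal was 1.16 times lower and 1.29 times higher, Agxt 1.3 times lower and 1.15 times higher, and Tat 1.16 times lower and 1.07 times higher.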

How the results depend on the processing

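TMM factors, no filter, a filter at 50 normalized reads and a pseudocount of 1 left every count and median on the same side with no named value past its counting interval, and counting the merged entries of Hpd and Afmid, chosen after seeing the data, altered no count. No called value reversed. Of the named genes, below 2-fold, Cth at 48 h (log2 fold -0.18) was 0.08 with library totals and 0.16 with the control pool of the other time, and Amt at 48 h (0.22) was -0.47 with the latter and -0.16 with both control pools summed. The shift by library totals at 48 h (0.27) also puts Uroc1 (-0.06), Gpt (-0.22), Ahcy (-0.21), Bckdha (-0.10) and Bckdhb (-0.22) above control. Fewer than the 30 members given above were then below control at 48 h. With library totals, the median log2 fold was -0.28 at 24 h and -0.0103 at 48 h, 1 gene was lower at 48 h and 1 at both times (all genes lower, 3.2% at 48 h), and Got1 and Cth at 24 h and Haao, Prodh and Gnmt at 48 h were no longer 2-fold lower, while Sds became 2-fold higher at 48 h. With the control pool of the other time, 12 genes were lower at 24 h, 1 at 48 h and 1 at both (all genes 6.55% at 24 h, 4.91% at 48 h). Prodh, Gnmt, Bhmt and Csad then lost their calls at 48 h, and Shmt1, Gnmt, Pcca, Fah and Mthfd1 gained one at 24 h, as did Mat1a (higher) at 48 h. With the sum of both control pools, 1 gene was higher at 48 h, Gnmt and Csad having lost their calls and Shmt1 having gained one at 24 h. At a threshold of 1.5-fold, 18 genes were lower at 24 h, 13 at 48 h and 9 at both, and 5 were higher at 48 h (all genes lower, 14.5% at 24 h and 14.4% at 48 h). At 3-fold, 0 were lower at 24 h, 48 h or both (all genes 1.73% at 24 h, 1.96% at 48 h), and 0 were higher at 48 h. With the whole interval beyond 2-fold, 4 were lower at 24 h, 2 at 48 h (all genes 1.76% and 2.2%), and 0 were higher at 48 h. The cause of these differences was not tested beyond what each alternative changes by construction. No paired analysis was possible because each group is 1 pool and the labels give no replicate numbers that groups share. A fit with the time points in place of replicates was not run. The limit of the data is the single pool per group: intervals cover counting error, and the spread between mice is not known. The fewest reads of a member in any library were 55.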
